A study of Homo sapiens with 24 samples.

Results

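The genes described here encode the subunits, activators, inhibitor and dedicated assembly chaperones of the proteasome, in human lung adenocarcinoma cells. They were taken by symbol, as every gene named PSMA to PSMG followed by a number, other than PSMB8 and PSMB9, that reached 1 FPKM (read fragments per kilobase of transcript, set against all mapped fragments) in at least 3 of the 24 libraries. The rule gave 44 genes among the 25365 gene rows of the deposited table. It left out the testis subunit PSMA8, which did not exceed 0.0378 FPKM in any library, and the thymus subunit PSMB11, which did not exceed 0.0339 FPKM. On the other side of the threshold, the lowest value of any of the 44 genes was 7.08 FPKM, of PSMG4 in HCC4006 CTRL OT replicate 1. PSMB8 and PSMB9, the inducible catalytic subunits left out by name, are listed at 0 in all 24 libraries. Whether those values of 0 mean no expression, or that reads of these genes were not counted, was not tested.

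PC9 and HCC4006 are established lung cancer lines with an activating mutation of EGFR. The study was designed to ask how loss of YAP1, the transcriptional coactivator of the Hippo pathway, alters the transcriptome of such cells when EGFR and MEK are inhibited together. Each line was plated as cells with a YAP1 knockout (YAP1 KO) and as control cells (CTRL), and was kept for 24 hours in OT or in DMSO, the solvent. The OT combination joined 100 nM osimertinib, which blocks EGFR, to 30 nM trametinib, which blocks MEK. The 8 groups, of 3 dishes and 3 mRNA libraries each, were YAP1 KO OT, YAP1 KO DMSO, CTRL OT and CTRL DMSO cells of HCC4006, and the same 4 of PC9. All of them shared RPMI-1640 medium and carried no further allele or agent that the labels name. How CTRL cells were made, and whether YAP1 KO cells are a clone or a pool, is not stated in any label. The column headers of the deposited table number the knockout differently in the lines, and no label says whether these numbers name guides or clones, so a difference in the YAP1 KO effect between the lines cannot be told apart from one between knockouts. Those headers also call the arm without OT NOTX, where the sample labels say DMSO. Nothing in the labels says that the 3 dishes of a group were separate lines, so p-values measure the spread between dishes.

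As background, the proteasome degrades proteins tagged with ubiquitin. Its barrel-shaped core, called 20S, has outer rings of alpha subunits that gate the channel and inner rings of beta subunits, of which PSMB5, PSMB6 and PSMB7 cut proteins. The regulatory cap, called 19S, has a base of ATPases that unfold the substrate and a lid that removes ubiquitin. Interferon induces alternative catalytic subunits, PSMB8, PSMB9 and PSMB10, and the cap PSME1-PSME2, which together favour the making of peptides for antigen presentation. In many cell types the constitutive subunit genes are known to be switched on together by the transcription factor NFE2L1 when proteasome activity is short.

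Promoter sequences are shown for genes on which the results below turn. They comprise the 3 interferon-inducible genes of the set (PSMB10, PSME1 and PSME2), the lid deubiquitinase PSMD14, which fell most with OT in both lines, and the chaperone PSMG1, whose level differed most between YAP1 KO OT and CTRL OT cells of PC9. Each runs 5′ to 3′ on the strand of the gene, from 250 bases before the annotated start to 50 after it, as RefSeq gives it for GRCh38.p14. The FPKM were made on another build, hg19. Capitals mark matches on either strand to 4 strings, which are the core of the antioxidant response element used by NFE2L1 and NFE2L2 (TGACNNNGC), the CCAAT box, the core of the interferon-stimulated response element (GAAA, any pair of bases, GAAA) and the gamma-activated sequence core (TTCNNNGAA, the same on both strands).
PSMB10, chr16:67936801-67937100, minus strand: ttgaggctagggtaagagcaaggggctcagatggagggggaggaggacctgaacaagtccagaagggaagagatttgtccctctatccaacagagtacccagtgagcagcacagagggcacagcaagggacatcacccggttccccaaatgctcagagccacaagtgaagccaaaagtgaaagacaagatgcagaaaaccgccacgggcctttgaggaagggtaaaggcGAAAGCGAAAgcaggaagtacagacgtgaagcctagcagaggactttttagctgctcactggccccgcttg
PSME1, chr14:24135944-24136243, plus strand: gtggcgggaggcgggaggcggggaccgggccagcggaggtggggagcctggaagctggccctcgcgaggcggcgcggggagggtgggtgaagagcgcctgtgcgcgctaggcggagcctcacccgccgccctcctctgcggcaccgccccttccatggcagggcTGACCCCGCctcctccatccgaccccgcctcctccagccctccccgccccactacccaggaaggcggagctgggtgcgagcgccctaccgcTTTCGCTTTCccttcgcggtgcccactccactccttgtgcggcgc
PSME2, chr14:24146561-24146860, minus strand: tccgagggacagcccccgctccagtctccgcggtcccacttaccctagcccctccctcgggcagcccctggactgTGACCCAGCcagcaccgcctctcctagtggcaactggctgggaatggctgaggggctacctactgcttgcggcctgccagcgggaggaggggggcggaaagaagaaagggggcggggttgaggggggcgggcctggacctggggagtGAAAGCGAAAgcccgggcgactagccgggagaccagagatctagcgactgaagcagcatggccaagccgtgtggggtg
PSMD14, chr2:161308175-161308474, plus strand: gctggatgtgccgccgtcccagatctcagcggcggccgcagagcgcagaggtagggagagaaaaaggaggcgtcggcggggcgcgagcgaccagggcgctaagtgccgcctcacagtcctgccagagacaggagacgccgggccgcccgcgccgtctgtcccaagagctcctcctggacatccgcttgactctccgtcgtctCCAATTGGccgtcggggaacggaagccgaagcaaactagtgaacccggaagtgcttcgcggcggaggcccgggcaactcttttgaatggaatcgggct
PSMG1, chr21:39183402-39183701, minus strand: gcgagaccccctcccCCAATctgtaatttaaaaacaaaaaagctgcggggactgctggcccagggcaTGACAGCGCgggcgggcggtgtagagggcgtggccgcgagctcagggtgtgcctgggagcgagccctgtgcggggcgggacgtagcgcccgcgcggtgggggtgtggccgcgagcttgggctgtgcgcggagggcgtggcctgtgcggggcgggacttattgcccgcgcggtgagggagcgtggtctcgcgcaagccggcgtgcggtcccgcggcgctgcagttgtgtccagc

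The PSMB10 and PSME2 promoters hold the same 10 letters, GAAAGCGAAA, starting 21 and 28 bases before the start, and PSME1 holds their reverse complement, TTTCGCTTTC, 5 bases after the start. PSME1 and PSME2 also hold an antioxidant element core, 86 and 175 bases before the start. In PSMD14 the capitals are a CCAAT box that overlaps a second one on the other strand, 48 and 45 bases before the start. PSMG1 has an antioxidant element core 183 bases before the start and a CCAAT box 235 bases before it. RefSeq promoters of this length were at hand for 38 of the 44 genes, 46 promoters in all. Of these, 30.4% held the antioxidant element core, against 13.3% of all 35116 promoters. The interferon element core was in 13% of the proteasome promoters (those of PSMB10, PSME1, PSME2, PSMA4, PSMB4 and PSMG4), against 3.57% of all. The CCAAT box was in 39.1% against 34.6%, and the gamma-activated core in 13% against 7.66%. These are matches of letters, and binding was not measured.

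FPKM summed to 507120 to 660459 per library, each OT library lying below every DMSO library of its line, and read depth is unknown. HCC4006 CTRL OT replicate 1 stood apart with the lowest sum, 507120, beside 573176 and 574160 in its group. Some of the results resting on it are therefore also given without it, and the others include it. YAP1 itself separated the genotypes in every library of both lines, with 3.90 to 6.34 against 13.9 to 19.7 FPKM in HCC4006 and 10.1 to 12.4 against 33.8 to 43.3 FPKM in PC9. The epithelial markers EPCAM, KRT8, KRT18, KRT19 and CDH1 were all expressed, and summed to 1541 to 1766 FPKM in OT against 2379 to 2948 FPKM in DMSO libraries of HCC4006, and to 5042 to 6689 against 4122 to 5100 FPKM in PC9. Most markers of other cells were low. The highest was CD68, a lysosomal protein that tumour cells also make. In OT libraries of HCC4006, COL1A2 reached 16.0 FPKM and KDR 5.81 FPKM. The 5 leukocyte markers summed to 82.8 to 110.1 FPKM in OT against 21.9 to 24.8 FPKM in DMSO libraries of HCC4006, of which CD68 made up 81.5 to 107.6 and 20.9 to 23.7 FPKM, while PTPRC, the defining leukocyte gene, did not exceed 0.0516 FPKM. In PC9 that sum was 29.4 to 38.9 FPKM in OT against 34.7 to 39.9 FPKM in DMSO libraries. The 4 endothelial markers summed to 4.61 to 6.68 against 0.224 to 0.397 FPKM in HCC4006, mostly KDR, with PECAM1 at 0 in all of its OT libraries, and did not exceed 1.16 FPKM in PC9. The 6 fibroblast markers summed to 7.29 to 20.5 against 2.38 to 3.90 FPKM in HCC4006, and to 1.80 to 2.57 against 1.37 to 1.63 FPKM in PC9. The part of these markers in the results was not tested.

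OT lowered most proteasome genes in both lines and in both genotypes, and raised PSMB10 and PSME1. In HCC4006 CTRL cells 40 of the 44 genes were lower with OT and 3 were higher, where 36.6% and 45% of all tested genes were lower and higher (limma on log2(FPKM + 1), Benjamini-Hochberg adjusted p under 0.05, which is the call used throughout). In PC9 CTRL cells 40 were lower and 2 higher, with 40.9% of all genes lower and 32% higher. Among YAP1 KO cells, 40 were lower and 4 higher in HCC4006, where all genes gave 36.5% and 46.4%. In PC9 YAP1 KO cells 40 were lower and 2 higher, where all genes gave 41.4% and 36.9%. The median log2 change of the 44 genes was -0.68 in HCC4006 CTRL cells, with 0.09 for all genes tested, and -0.34 in PC9 CTRL cells, with -0.04 for all genes. In YAP1 KO cells it was -0.64 in HCC4006, with 0.11 for all genes, and -0.41 in PC9, with -0.02 for all genes. These 4 comparisons use separate libraries, but those of the same line share an estimate of the spread. Without HCC4006 CTRL OT replicate 1, the HCC4006 CTRL counts were 40 lower and 4 higher.

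The fall was shared across the set. Of the 44 genes, 37 fell in all 4 OT comparisons and PSMB10 and PSME1 rose in all 4, where 27% and 22.7% of all genes tested in both lines fell and rose in all 4. The other 5 (PSMB4, PSMD4, PSMD9, PSME2 and PSME4) did neither. Rescaling the libraries left 29 to 33 genes lower in all 4, and 2 higher. With each library set to the same upper quartile, PSMB6, PSMB7 and PSMD4 had log2 changes just above 0 in PC9 CTRL cells and PSMB4 in PC9 YAP1 KO cells, and with libraries set to the same sum so did PSMB4 in PC9 and PSMD5 in HCC4006 YAP1 KO cells, none past the threshold. In the libraries themselves, 40 genes lay lower in all 3 OT than in all 3 DMSO dishes of HCC4006 CTRL cells and 41 did in PC9 CTRL cells, where 36.4% and 42% of all genes did. In all 3 dishes 3 and 2 genes lay higher, where 44.5% and 32.8% of all genes did. The FPKM of the 44 genes summed to 4832 ± 515 in HCC4006 CTRL OT and 7434 ± 236 in CTRL DMSO cells (SD, n = 3 each), and to 5723 ± 116 in PC9 CTRL OT and 6892 ± 51.6 in CTRL DMSO cells. As a share of all FPKM of a library, that was 0.875% ± 0.0339 in OT and 1.15% ± 0.0230 in DMSO for HCC4006 CTRL cells, and 0.973% ± 0.0130 in OT and 1.12% ± 0.0138 in DMSO for PC9 CTRL cells. All FPKM of a library include rows named MIR1244, which held 5.26% to 8.13% of them in DMSO and 2.43% to 3.81% in OT libraries. The shares above and the scaling to the same sum therefore also move with these rows, and their part was not tested. In bulk libraries, fewer cells of a type and less RNA per cell cannot be told apart.

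**Figure D1:**
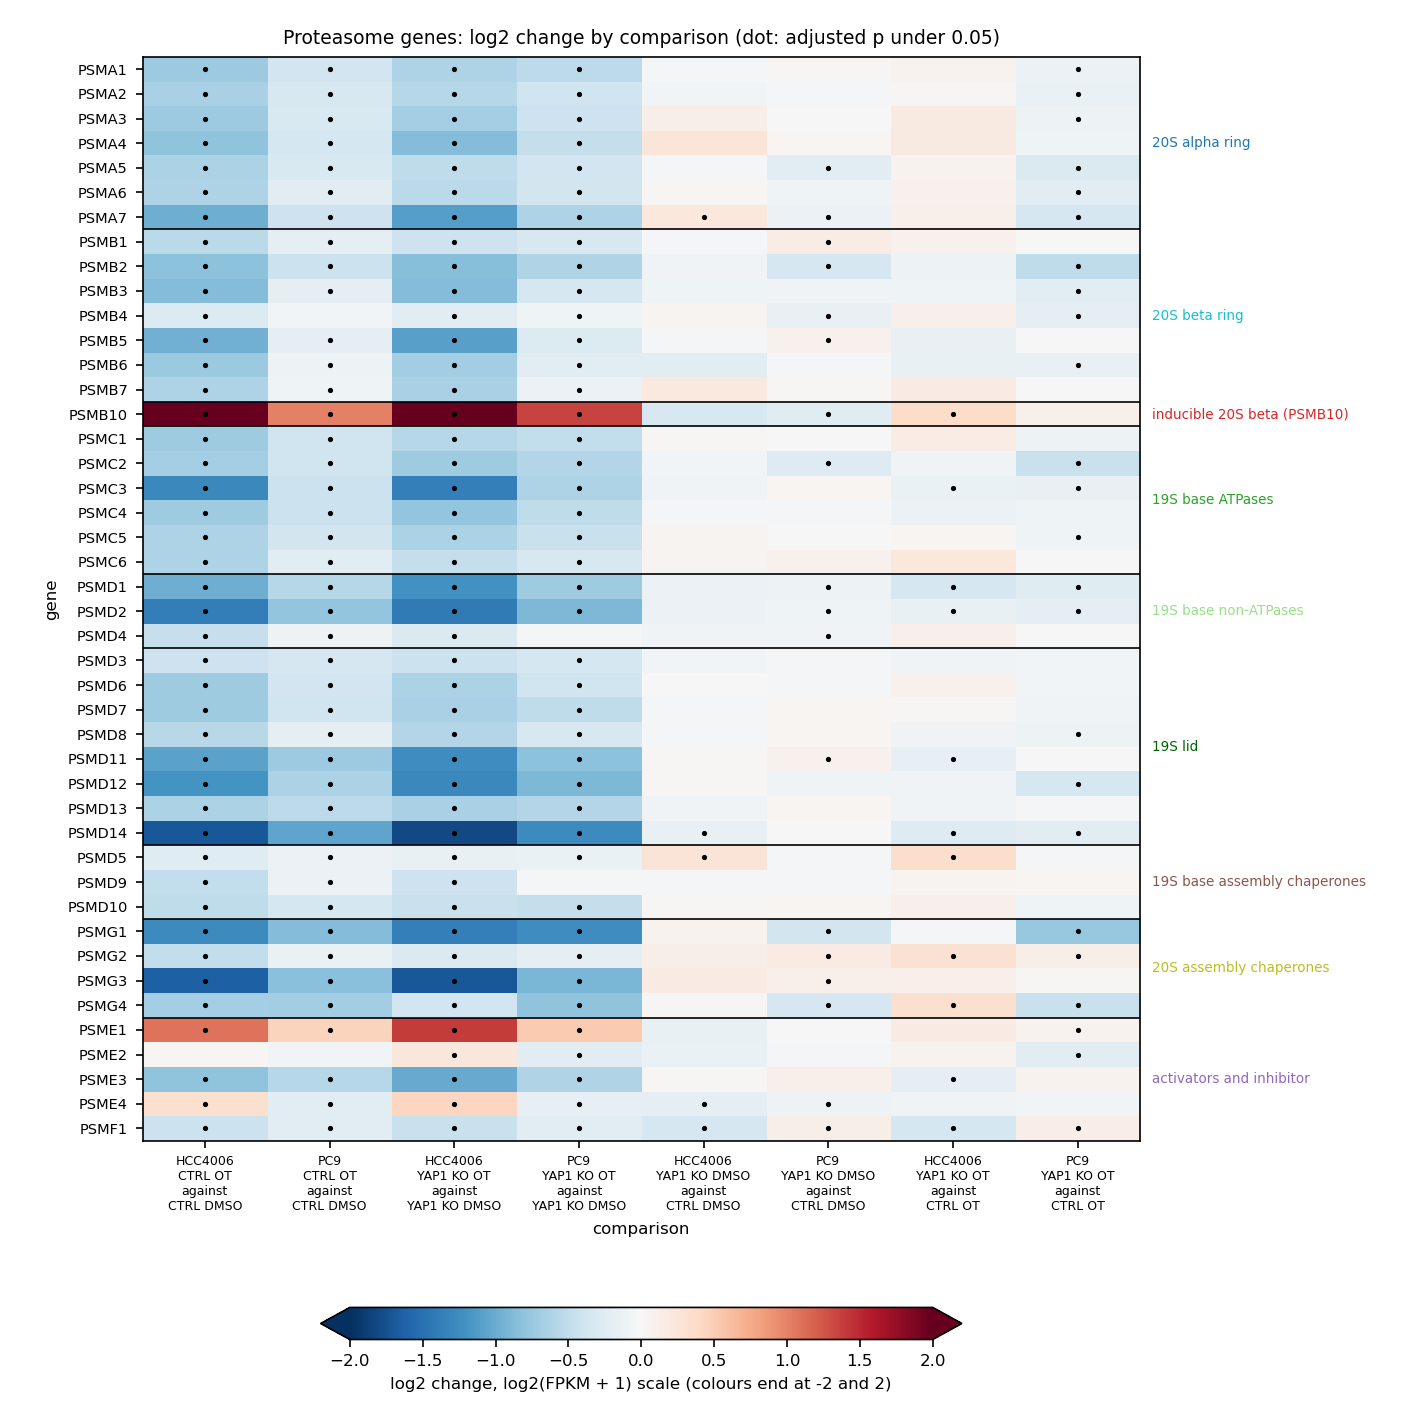
Log2 change in 8 comparisons (columns) of each of the 44 proteasome genes (rows, ordered by role), from limma on log2(FPKM + 1), with a dot where the adjusted p is under 0.05 and the colour scale ending at 2 in either direction. The 4 OT columns are blue for nearly every gene, apart from PSMB10 and PSME1, while the YAP1 KO columns are pale.

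Of the core, all 7 alpha subunits fell with OT in CTRL cells of both lines. Their median log2 change was -0.72 in HCC4006 (range -0.98 to -0.61) and -0.31 in PC9 (range -0.41 to -0.23). PSMA7 changed most of them in both HCC4006 (log2 change -0.98 ± 0.06, adjusted p = 2.1e-08) and PC9 (log2 change -0.41 ± 0.03, adjusted p = 2.8e-08). The constitutive beta subunits had a median of -0.74 in HCC4006, where all 7 fell, and of -0.18 in PC9, where 6 fell and PSMB4, a structural subunit, did not pass the test (log2 change -0.05 ± 0.03, adjusted p = 0.087).

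The catalytic subunits fell further in HCC4006, with differences between the OT responses of the lines of -0.77 ± 0.08 for PSMB5, -0.64 ± 0.09 for PSMB6 and -0.54 ± 0.07 for PSMB7 on the log2 scale (adjusted p = 7.4e-08, 4.7e-06 and 1.0e-06). PSMB5, which carries the chymotrypsin-like activity that bortezomib blocks, had 85.7, 105 and 103 FPKM in HCC4006 CTRL OT dishes and 190.2, 205 and 180.2 FPKM in CTRL DMSO dishes (log2 change -0.96 ± 0.07, adjusted p = 7.0e-08). In PC9 CTRL cells it had 139, 146 and 149 FPKM with OT and 161, 168 and 168 FPKM with DMSO (log2 change -0.20 ± 0.03, adjusted p = 0.00011). In neither line did the treatments overlap, and the gap was the wider in HCC4006.

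PSMB6, with the caspase-like activity, had 146, 189 and 183 FPKM in HCC4006 CTRL OT dishes and 283, 302 and 278 FPKM in CTRL DMSO dishes (log2 change -0.74 ± 0.08, adjusted p = 3.1e-06). In PC9 it had 443, 448 and 467 FPKM with OT and 497, 491 and 474 FPKM with DMSO (log2 change -0.11 ± 0.03, adjusted p = 0.0063), a narrow gap without overlap that vanished when libraries were set to the same upper quartile (log2 change 0.0052, adjusted p = 0.89). PSMB7, with the trypsin-like activity, had 159, 192 and 186 FPKM in HCC4006 CTRL OT dishes and 270.5, 291 and 265 FPKM in CTRL DMSO dishes (log2 change -0.62 ± 0.06, adjusted p = 1.4e-06). The PC9 dishes gave 405, 418 and 404 FPKM with OT and 434, 435 and 433 FPKM with DMSO (log2 change -0.09 ± 0.02, adjusted p = 0.007), and the upper-quartile scaling gave 0.03 (adjusted p = 0.35).

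In the base of the cap, which feeds unfolded substrate into the core, all 6 ATPases fell with OT in CTRL cells of both lines, by a median log2 change of -0.69 in HCC4006 (range -1.29 to -0.61) and -0.40 in PC9 (range -0.43 to -0.23). PSMC3 had the deepest fall of them in HCC4006, with 50.8, 52.2 and 53.4 FPKM in CTRL OT dishes and 126, 136 and 124 FPKM in CTRL DMSO dishes (log2 change -1.29 ± 0.04, adjusted p = 5.7e-11). PC9 CTRL dishes gave 140.5, 141 and 137 FPKM with OT and 193, 186 and 185 FPKM with DMSO (log2 change -0.43 ± 0.03, adjusted p = 4.4e-08). The OT dishes of HCC4006 were thus well below its DMSO dishes, while in PC9 the gap was smaller, again without overlap. The non-ATPase subunits of the base, which bind ubiquitin and shuttle factors, also fell in both lines. PSMD2, a scaffold of the base, had 71.2, 70.5 and 70.8 FPKM in HCC4006 CTRL OT dishes and 188, 195 and 176 FPKM in CTRL DMSO dishes (log2 change -1.38 ± 0.04, adjusted p = 2.5e-11). It had 155, 159 and 148 FPKM in PC9 CTRL OT dishes and 272, 267 and 261 FPKM in CTRL DMSO dishes (log2 change -0.79 ± 0.03, adjusted p = 1.7e-10). The ubiquitin receptor PSMD4 changed least of the 3, by -0.45 ± 0.08 in HCC4006 and -0.09 ± 0.02 in PC9 on the log2 scale.

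All 8 lid subunits fell with OT in CTRL cells of both lines, with medians of -0.72 in HCC4006 and -0.46 in PC9. PSMD14, the metalloprotease that strips ubiquitin chains from the substrate, changed most. It had 36.8, 37.8 and 41.4 FPKM in HCC4006 CTRL OT dishes and 124, 126 and 131 FPKM in CTRL DMSO dishes (log2 change -1.69 ± 0.04, adjusted p = 6.5e-12). In PC9 it had 40.3, 41.6 and 40.2 FPKM with OT and 87.9, 82.7 and 85.4 FPKM with DMSO (log2 change -1.05 ± 0.03, adjusted p = 6.3e-11). PSMD14 levels in OT were close together in all 12 OT dishes, between 31.7 and 41.6 FPKM, while DMSO dishes of HCC4006 stood above those of PC9. In YAP1 KO cells it had 32.3, 31.9 and 31.7 FPKM with OT and 114, 115 and 113 FPKM with DMSO in HCC4006 (log2 change -1.80 ± 0.04, adjusted p = 2.5e-12). The PC9 YAP1 KO dishes gave 34.7, 34.5 and 34.2 FPKM with OT and 83.7, 88.8 and 82.2 FPKM with DMSO (log2 change -1.28 ± 0.03, adjusted p = 5.4e-12). PSMD14 was the only one of the 44 genes to fall by 1 or more on the log2 scale in PC9 CTRL cells. In HCC4006 CTRL cells 7 genes did, which were PSMC3, PSMD2, PSMD11, PSMD12, PSMD14, PSMG1 and PSMG3. The 10th percentile of the log2 changes of all genes was -0.999 in HCC4006 CTRL cells and -0.717 in PC9 CTRL cells. All genes thus also reached further down in HCC4006, and the 7 genes against 1 are not read as particular to the proteasome. The exact share of all genes that fell by 1 or more was not computed.

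Among the assembly chaperones, the 4 of the core (PSMG1 to PSMG4), which build the alpha ring and leave the finished particle, fell with OT in CTRL cells of both lines, by medians of -0.98 in HCC4006 and -0.76 in PC9. PSMG3 had 56.5, 68.5 and 61.97 FPKM in HCC4006 CTRL OT dishes and 197, 198 and 192 FPKM in CTRL DMSO dishes (log2 change -1.64 ± 0.06, adjusted p = 8.3e-11). For PC9 the values were 72.3, 74.1 and 70.8 FPKM with OT and 132, 131 and 127 FPKM with DMSO (log2 change -0.84 ± 0.03, adjusted p = 4.6e-10). The 3 dishes of each group lay close together and the treatments were far apart. Its partner PSMG4 had 7.08, 8.34 and 10.2 FPKM in HCC4006 CTRL OT dishes and 13.03, 15.7 and 13.8 FPKM in CTRL DMSO dishes (log2 change -0.68 ± 0.10, adjusted p = 4.5e-05). The levels of PSMG4 in PC9 were higher throughout, at 31.7, 33.4 and 34.5 FPKM with OT and 55.8, 54.5 and 52.1 FPKM with DMSO (log2 change -0.69 ± 0.05, adjusted p = 2.1e-07). The base chaperones PSMD5, PSMD9 and PSMD10 fell as well, with smaller log2 changes. That of PSMD10, also called gankyrin and the largest of the 3, was -0.52 ± 0.07 in HCC4006 and -0.35 ± 0.04 in PC9. Antisense rows exist for PSMD5, PSMD6 and PSMG3, and whether the authors counted by strand is not stated in any label. PSMD5-AS1 had 2.86 to 14.01 FPKM where PSMD5 had 14.03 to 22.6 FPKM, so the values of PSMD5 are uncertain.

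PSMB10, the inducible subunit that takes the place of PSMB7 in the immunoproteasome, rose with OT in both lines and both genotypes. HCC4006 YAP1 KO cells had 168, 174 and 177 FPKM with OT and 20.1, 19.4 and 23.3 FPKM with DMSO (log2 change 2.99 ± 0.10, adjusted p = 4.2e-11). HCC4006 CTRL cells had 115, 146 and 145 FPKM with OT and 26.05, 29.6 and 23.5 FPKM with DMSO (log2 change 2.31 ± 0.10, adjusted p = 5.8e-10). No OT dish overlapped a DMSO dish, and without CTRL OT replicate 1, the lowest of its group, the CTRL log2 change was 2.43. PC9 YAP1 KO cells had 76.5, 85.1 and 80.5 FPKM with OT and 28.8, 31.3 and 33.3 FPKM with DMSO (log2 change 1.35 ± 0.06, adjusted p = 3.5e-10). PC9 CTRL cells had 71.96, 74.6 and 79.1 FPKM with OT and 35.9, 38.8 and 36.5 FPKM with DMSO (log2 change 1.00 ± 0.06, adjusted p = 9.1e-09). Every OT dish of HCC4006 stood above every OT dish of PC9, while nearly all DMSO dishes of HCC4006 stood below those of PC9.

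Set against PSMB7, whose place it takes, PSMB10 came to 75.4% ± 2.87 of the PSMB7 level in HCC4006 CTRL OT and 9.54% ± 0.664 in CTRL DMSO cells (SD, n = 3 each). In HCC4006 YAP1 KO cells the ratio was 86.6% ± 2.23 with OT and 6.63% ± 0.618 with DMSO. PC9 gave 18.4% ± 1.01 with OT and 8.55% ± 0.331 with DMSO in CTRL cells. In PC9 YAP1 KO cells it was 19.8% ± 0.589 with OT and 7.09% ± 0.569 with DMSO. These are ratios of mRNA levels per length, and protein was not measured. The highest mean with DMSO was the 9.54% of HCC4006 CTRL cells, and the OT ratios of HCC4006 stood far above those of PC9.

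**Figure D2:**
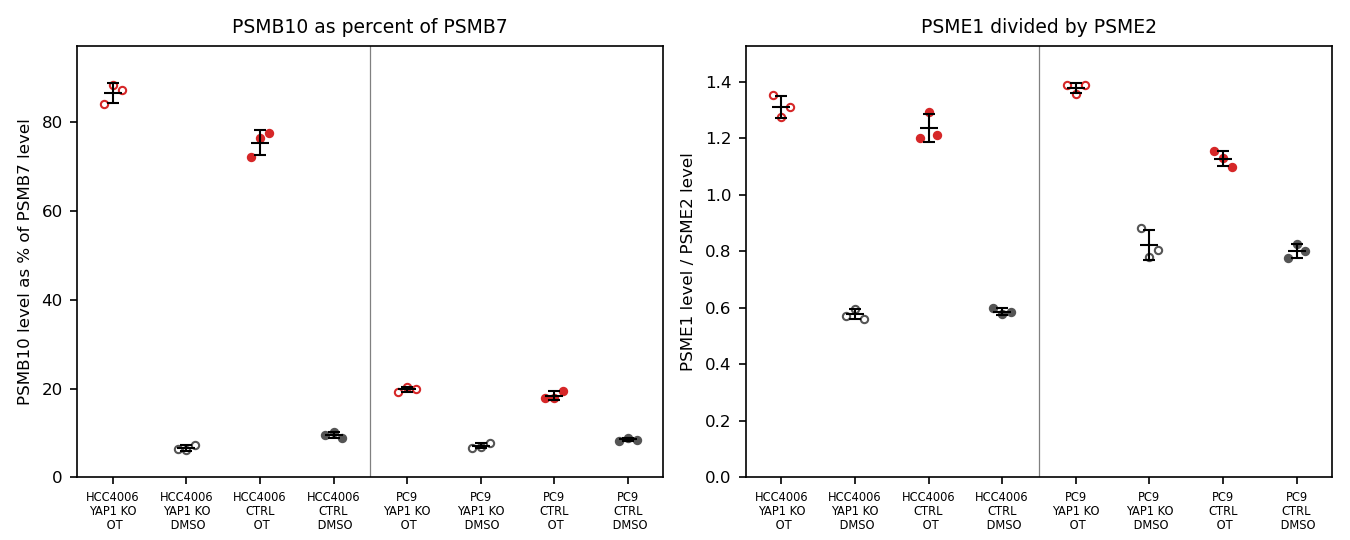
PSMB10 as a percent of PSMB7 (left) and PSME1 over PSME2 (right) by group, computed from FPKM, with 1 point per library, a bar at the mean of 3 and whiskers for the SD. The HCC4006 OT groups average 86.6% and 75.4% for PSMB10 against PSMB7, and the PC9 OT groups 19.8% and 18.4%.

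PSME1 and PSME2 form the interferon-inducible cap, in which both proteins are needed. PSME1 had 166, 218 and 209.8 FPKM in HCC4006 CTRL OT dishes and 90.8, 94.7 and 91.2 FPKM in CTRL DMSO dishes (log2 change 1.08 ± 0.08, adjusted p = 9.3e-08). The PC9 values were 166, 162 and 171 FPKM with OT and 121, 121 and 125 FPKM with DMSO (log2 change 0.44 ± 0.03, adjusted p = 1.5e-08). It rose in YAP1 KO cells too, by 1.40 ± 0.08 in HCC4006 and 0.52 ± 0.03 in PC9 on the log2 scale, and the treatments did not overlap in any of the 4 comparisons. PSME2 did not follow it. It had 138, 168 and 173 FPKM in HCC4006 CTRL OT dishes and 151, 164 and 156 FPKM in CTRL DMSO dishes, which overlapped (log2 change 0.02 ± 0.08, adjusted p = 0.84). Without CTRL OT replicate 1 the log2 change of PSME2 was 0.12 and passed the test (adjusted p = 0.035), and with libraries set to the same sum it was 0.24 (adjusted p = 0.00022). PC9 CTRL dishes had 143, 143 and 156 FPKM with OT and 156, 147 and 156 FPKM with DMSO, also overlapping (log2 change -0.05 ± 0.05, adjusted p = 0.33).

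In YAP1 KO cells PSME2 moved in opposite directions in the lines. HCC4006 had 161, 168 and 175 FPKM with OT and 141, 139 and 151 FPKM with DMSO (log2 change 0.22 ± 0.08, adjusted p = 0.018), and PC9 had 123, 131 and 126 FPKM with OT and 139, 156 and 150.1 FPKM with DMSO (log2 change -0.22 ± 0.05, adjusted p = 0.00084). The HCC4006 rise was not called without YAP1 KO DMSO replicate 2 (adjusted p = 0.058), without YAP1 KO OT replicate 3 (adjusted p = 0.064) or with median-of-ratios scaling. The ratio of PSME1 to PSME2 was 1.24 ± 0.0503 in HCC4006 CTRL OT and 0.587 ± 0.0109 in CTRL DMSO cells, and 1.13 ± 0.0271 in PC9 CTRL OT and 0.801 ± 0.0240 in CTRL DMSO cells (SD, n = 3 each). In YAP1 KO cells it was 1.31 ± 0.0392 with OT and 0.577 ± 0.0176 with DMSO in HCC4006, and 1.38 ± 0.0190 and 0.822 ± 0.0533 in PC9. PSME1 was thus the lower of the pair in every DMSO group and the higher in every OT group. RefSeq names 6 pseudogenes for PSME2 and 1 for PSMB7 that could share reads, so the values of PSME2 and the ratios to PSME2 and to PSMB7 are uncertain.

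**Figure D3:**
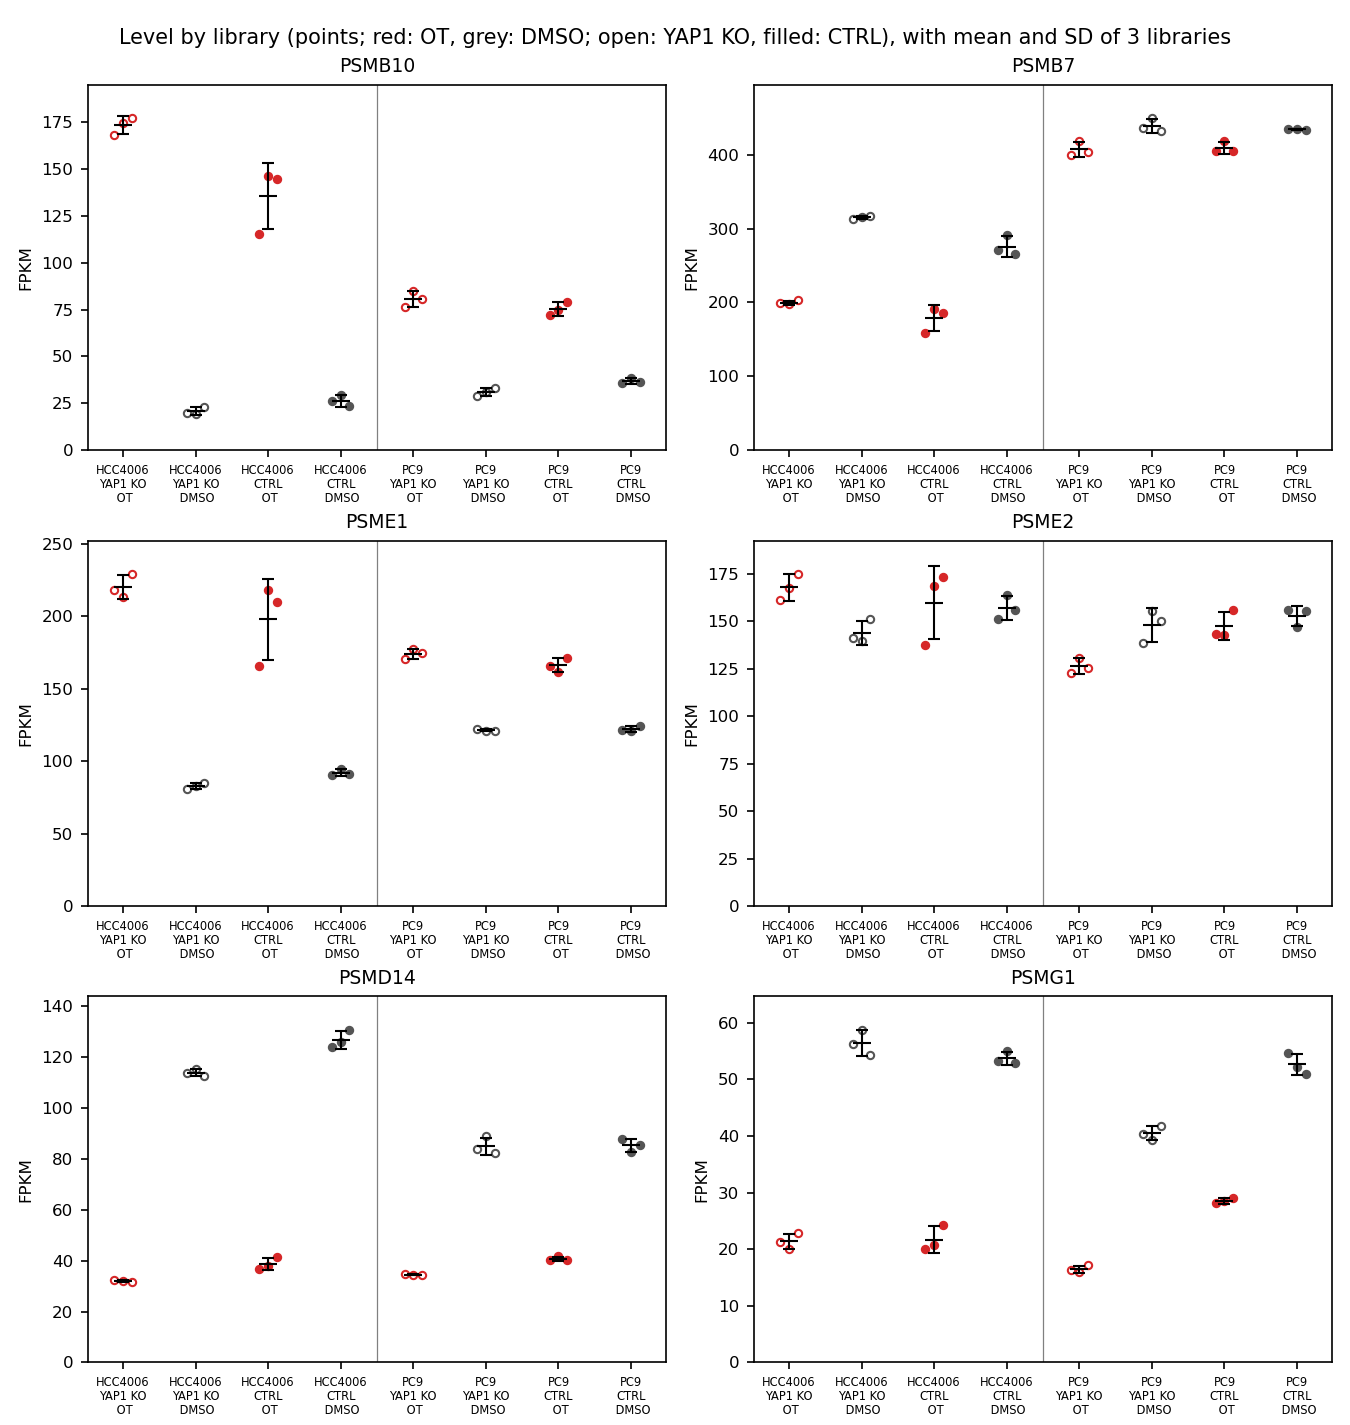
FPKM of PSMB10, PSMB7, PSME1, PSME2, PSMD14 and PSMG1 in each of the 24 libraries, 1 point per library, with red for OT, grey for DMSO, open points for YAP1 KO and filled points for CTRL. PSMB10 and PSME1 are higher in OT than in DMSO in both lines, PSMD14 and PSMG1 are lower, and PSME2 shows no such gap in CTRL cells.

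The remaining activators and the inhibitor did not move together. PSME3, the nuclear relative of PSME1 that works without ubiquitin, had 31.03, 29.03 and 27.3 FPKM in HCC4006 CTRL OT dishes and 52.1, 51.2 and 50.9 FPKM in CTRL DMSO dishes (log2 change -0.80 ± 0.05, adjusted p = 6.0e-09). PC9 CTRL cells gave 30.4, 31.1 and 28.2 FPKM with OT and 44.4, 44.9 and 44.7 FPKM with DMSO (log2 change -0.57 ± 0.04, adjusted p = 1.4e-07). Both lines were without overlap. PSME4, a single-chain activator known from spermatids and DNA repair, went opposite ways. It had 19.7, 19.8 and 20.3 FPKM in HCC4006 CTRL OT dishes and 16.1, 15.4 and 15.7 FPKM in CTRL DMSO dishes (log2 change 0.32 ± 0.04, adjusted p = 1.1e-05). In PC9 it had 15.4, 15.5 and 15.4 FPKM with OT and 18.3, 18.3 and 17.7 FPKM with DMSO (log2 change -0.22 ± 0.03, adjusted p = 9.4e-05). The OT dishes lay above the DMSO dishes in HCC4006 and below them in PC9. PSMF1, which binds and inhibits the core in vitro, fell in both lines. Its levels were 31.5, 29.6 and 29.03 FPKM in HCC4006 CTRL OT dishes and 41.9, 42.1 and 38.2 FPKM in CTRL DMSO dishes (log2 change -0.43 ± 0.05, adjusted p = 3.5e-06). In PC9 they were 18.7, 20.1 and 19.6 FPKM with OT and 23.4, 23.6 and 21.1 FPKM with DMSO (log2 change -0.21 ± 0.04, adjusted p = 0.00095), and the PC9 change was not called with libraries set to the same upper quartile.

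The response to OT differed between the lines for most of the genes. In a fit of all 24 libraries, the OT response of HCC4006 CTRL cells minus that of PC9 CTRL cells was below 0 for 36 genes and above 0 for 3, where 26% and 39.3% of all genes were. The median difference was -0.34 for the 44 genes and 0.10 for all genes on the log2 scale. It was -0.18 with libraries set to the same sum (0.23 for all genes) and -0.49 with median-of-ratios scaling (-0.02 for all genes). The widest differences below 0 were those of PSMC3 (-0.86 ± 0.05, adjusted p = 1.3e-11), PSMG3 (-0.80 ± 0.07, adjusted p = 3.4e-09) and PSMB5 (-0.77 ± 0.08, adjusted p = 7.4e-08). Those above 0 were PSMB10 (1.31 ± 0.12, adjusted p = 1.8e-08), PSME1 (0.64 ± 0.09, adjusted p = 3.6e-06) and PSME4 (0.54 ± 0.05, adjusted p = 4.8e-09). Without HCC4006 CTRL OT replicate 1 the first 3 were -0.84, -0.74 and -0.67, and those of PSMB10 and PSME1 were 1.43 and 0.77. PSME2 did not pass this test (0.07 ± 0.09, adjusted p = 0.53), but did without that library (0.17, adjusted p = 0.039). PSMG4, PSMD3, PSMD10 and PSMD13, the other 4 genes that did not pass, differed by 0.01, -0.09, -0.17 and -0.12.

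**Figure D4:**
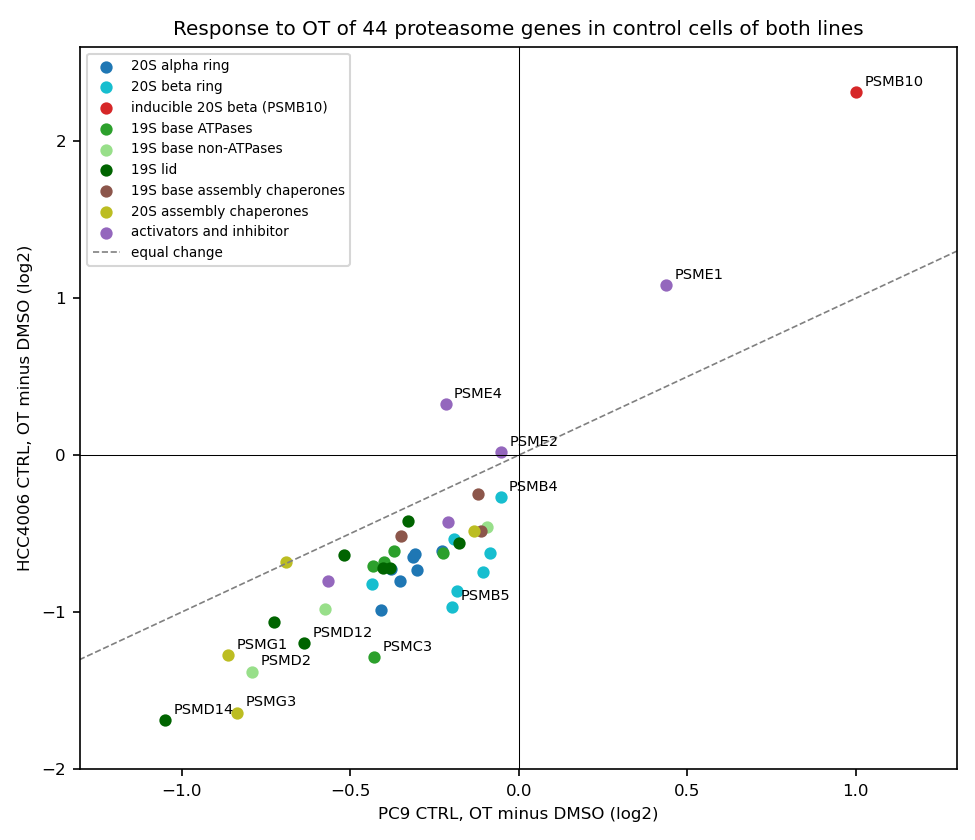
Log2 change with OT in CTRL cells of PC9 (x axis) and of HCC4006 (y axis) for each of the 44 genes, with 1 point per gene and a line of equal change. Of the 44 points, 39 lie below that line, and PSMB10 is at the upper right with 1.00 in PC9 and 2.31 in HCC4006. The share of all genes below such a line was not computed. By the limma test of the difference 36 of the 44 were called below 0, where 26% of all genes were.

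Under DMSO, YAP1 KO and CTRL cells of HCC4006 differed at few of the 44 genes as deposited, but not with every scaling. In PC9 they differed at about as large a share as among all genes. In HCC4006 2 genes were higher and 3 lower in YAP1 KO than in CTRL cells, against 9.2% and 8.65% of all genes. In PC9 6 were higher and 12 lower, against 19.8% and 20% of all genes. The median log2 difference was -0.03 in HCC4006 and -0.02 in PC9, with 0.02 and 0.01 for all genes, and other scalings gave -0.06 to 0.0046 in HCC4006 and -0.04 to 0.0083 in PC9. These counts depended on single libraries and on scaling. In HCC4006, leaving out CTRL OT replicate 1 gave 6 higher and 8 lower, leaving out CTRL OT replicate 2 gave 4 higher, and leaving out CTRL DMSO replicate 1 gave 1 higher and 1 lower. CTRL DMSO replicate 3, any of the 3 YAP1 KO DMSO dishes, and YAP1 KO OT replicates 1 and 2 each gave 1 higher when left out. In PC9, 3 genes were higher without CTRL DMSO replicate 2 or YAP1 KO DMSO replicate 2, and 2 were without CTRL DMSO replicate 3 or YAP1 KO DMSO replicate 3. Other scalings gave 6 higher and 3 lower (same sum), 4 and 7 (same upper quartile) or 1 and 3 (median of ratios) in HCC4006. Of all genes there, 9.85% and 6.09%, 7% and 10.3%, or 8.37% and 9.45% were called. The HCC4006 share was thus above that of all genes at the same sum and upper quartile, and below it by median of ratios. In PC9 these scalings gave 3 and 11, 8 and 8, or 2 and 12. All genes gave 19.4% and 19.5%, 24.5% and 17.4%, or 17.5% and 21.6%.

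In HCC4006, the base chaperone PSMD5 was higher in YAP1 KO cells, with 21.7, 20.4 and 20.5 FPKM in YAP1 KO DMSO dishes and 17.3, 16.9 and 17.5 FPKM in CTRL DMSO dishes (log2 change 0.26 ± 0.04, adjusted p = 0.00099). The inhibitor PSMF1 was lower, with 32.3, 31.5 and 32.1 FPKM in YAP1 KO DMSO dishes and 41.9, 42.1 and 38.2 FPKM in CTRL DMSO dishes (log2 change -0.34 ± 0.05, adjusted p = 0.00054). Neither gene overlapped between the genotypes. The 3 further calls (PSMA7, PSMD14 and PSME4, adjusted p = 0.034, 0.033 and 0.011) were weaker. In the 12 refits that left out 1 dish each, PSMA7 lost its call in 7 and PSMD14 in 8, and PSME4 lost it without CTRL DMSO replicate 1 (adjusted p = 0.051). In PC9 the chaperone PSMG1 was lower, with 40.4, 39.4 and 41.9 FPKM in YAP1 KO DMSO dishes and 54.7, 52.2 and 51.01 FPKM in CTRL DMSO dishes (log2 change -0.37 ± 0.04, adjusted p = 1.0e-05). PSMB2, a structural core subunit, had 95.2, 96.96 and 98.1 FPKM in YAP1 KO DMSO dishes and 122, 125 and 121 FPKM in CTRL DMSO dishes (log2 change -0.34 ± 0.03, adjusted p = 1.5e-06). PSMG4 had 40.8, 41.9 and 45.9 FPKM in YAP1 KO DMSO dishes and 55.8, 54.5 and 52.1 FPKM in CTRL DMSO dishes (log2 change -0.33 ± 0.05, adjusted p = 0.00047). All 3 genes were lower in every YAP1 KO dish. PSMB10 was lower too, with 28.8, 31.3 and 33.3 FPKM in YAP1 KO DMSO dishes and 35.9, 38.8 and 36.5 FPKM in CTRL DMSO dishes (log2 change -0.25 ± 0.06, adjusted p = 0.0042), and in HCC4006 it just missed the threshold (-0.32 ± 0.10, adjusted p = 0.051). Of the 6 PC9 genes that were higher, PSMG2 and PSMB1 changed most (0.16 ± 0.04 and 0.14 ± 0.04 on the log2 scale).

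With OT, the genotypes of PC9 differed at about the same share of the 44 genes as of all genes. Levels in PC9 were mostly lower in YAP1 KO cells. The genotypes of HCC4006 differed at a smaller share as deposited, but not with every scaling. YAP1 KO OT cells of PC9 had 21 genes lower and 3 higher than CTRL OT cells, where 25.2% and 28.5% of all genes were lower and higher. Those of HCC4006 had 7 lower and 4 higher, with 16.4% and 27.2% of all genes. The median log2 difference was -0.09 in PC9 and 0.04 in HCC4006, against 0.02 and 0.06 for all genes. Other scalings gave -0.14 to -0.05 in PC9, and in HCC4006 the median turned to -0.02 by median of ratios and at the same upper quartile. The 3 higher calls of PC9 (PSMF1, PSMG2 and PSME1) were weak, with none left without CTRL OT replicate 1 or YAP1 KO OT replicate 2 (1 at an unadjusted limma p under 0.05), 1 left without CTRL OT replicate 2 or YAP1 KO OT replicate 1, and none with median-of-ratios scaling (0 at an unadjusted p under 0.05), which gave 28 lower. In HCC4006, leaving out CTRL OT replicate 1 gave 14 lower, and leaving out CTRL OT replicate 2 or 3 gave 7 or 9 higher. There the other scalings gave 12 higher and 8 lower (same sum), 4 and 15 (same upper quartile) or 3 and 12 (median of ratios). Of all genes, 26.3% and 15.2%, 20.1% and 20.7%, or 20.4% and 19.9% were called. At the same sum and upper quartile the share of the 44 genes was thus no smaller than that of all genes. The YAP1 KO comparisons with OT and with DMSO share no libraries, but each uses dishes that the OT comparisons of its line also use. Tests within a line also share an estimate of the spread.

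By role, 6 of the 7 alpha subunits were lower in YAP1 KO OT than in CTRL OT cells of PC9, with a median of -0.13. None of the 7 passed in HCC4006 by limma (0 at an unadjusted p under 0.05), where the median was 0.09. Among the 7 beta subunits 4 were lower in PC9 and none passed in HCC4006 (3 at an unadjusted p under 0.05). Of the 6 ATPases 3 were lower in PC9 and 1, PSMC3, in HCC4006, which lost its call in 4 of 12 refits that left out a dish. Of the 8 lid subunits, 3 were lower in PC9 and 2 in HCC4006.

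PSMG1 differed most in PC9, with 16.3, 15.99 and 17.2 FPKM in YAP1 KO OT dishes and 28.1, 28.4 and 29.02 FPKM in CTRL OT dishes (log2 change -0.76 ± 0.04, adjusted p = 1.7e-08). In HCC4006 it had 21.3, 19.97 and 22.8 FPKM in YAP1 KO OT dishes and 19.97, 20.8 and 24.3 FPKM in CTRL OT dishes (log2 change -0.02 ± 0.07, adjusted p = 0.85). The genotypes were far apart in PC9 and overlapped in HCC4006. PSMB2 had 62.7, 64.4 and 62.4 FPKM in PC9 YAP1 KO OT dishes and 87.7, 92.5 and 91.3 FPKM in CTRL OT dishes (log2 change -0.51 ± 0.03, adjusted p = 2.9e-08). The ATPase PSMC2 had 52.7, 55.7 and 53.3 FPKM in PC9 YAP1 KO OT dishes and 70.7, 76.99 and 74.5 FPKM in CTRL OT dishes (log2 change -0.45 ± 0.04, adjusted p = 7.5e-07). PSMG4 had 24.2, 25.4 and 22.4 FPKM in PC9 YAP1 KO OT dishes and 31.7, 33.4 and 34.5 FPKM in CTRL OT dishes (log2 change -0.45 ± 0.05, adjusted p = 2.5e-05). None of these overlapped between the genotypes in PC9.

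Across the lines, 4 genes (PSMC3, PSMD1, PSMD2 and PSMD14) were lower and 1 (PSMG2) was higher in YAP1 KO OT than in CTRL OT cells of both, and 2 (PSMF1 and PSMG4) were called in opposite directions. The shares of all genes called alike or in opposite directions in both lines were not computed. These counts are therefore not read as a shared effect of YAP1 KO. In HCC4006, PSMD5 had 18.3, 18.7 and 19.1 FPKM in YAP1 KO OT dishes and 14.4, 14.7 and 14.03 FPKM in CTRL OT dishes (log2 change 0.36 ± 0.04, adjusted p = 2.5e-05). PSMF1 had 23.8, 23.4 and 22.7 FPKM in YAP1 KO OT dishes and 31.5, 29.6 and 29.03 FPKM in CTRL OT dishes (log2 change -0.35 ± 0.05, adjusted p = 9.6e-05). The directions of both were those seen with DMSO, and the genotypes did not overlap. PSMB10 was also higher in YAP1 KO OT cells (log2 change 0.36 ± 0.10, adjusted p = 0.013), and all its YAP1 KO dishes lay above the CTRL dishes. The lid enzyme PSMD14 and the base scaffold PSMD1 were lower (-0.27 ± 0.04 and -0.34 ± 0.05, adjusted p = 0.00053 and 0.00017). PSMG4 was higher (log2 change 0.32 ± 0.10, adjusted p = 0.024), but the call was lost without CTRL OT replicate 1 (0.20, adjusted p = 0.073), CTRL OT replicate 2 (adjusted p = 0.058) or YAP1 KO OT replicate 3 (adjusted p = 0.083).

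The difference between the lines was tested directly for the YAP1 KO effect under OT. That effect in HCC4006 minus that in PC9 was above 0 for 14 genes and below 0 for 3, where 24.4% and 18% of all genes were. The median was 0.14 for the 44 genes and 0.04 for all genes, and 0.04 and -0.04 at the same upper quartile. The calls split 20 and 5 with libraries set to the same sum, 11 and 4 with median-of-ratios scaling and 9 and 8 with the same upper quartile, and 5 were below 0 without HCC4006 CTRL OT replicate 1. PSMG4 (0.77 ± 0.12, adjusted p = 3.7e-05), PSMG1 (0.74 ± 0.08, adjusted p = 3.9e-07) and PSMA7 (0.44 ± 0.07, adjusted p = 3.9e-05) had the widest differences above 0. Below 0 were PSMF1 (-0.48 ± 0.06, adjusted p = 4.4e-06), PSME3 (-0.27 ± 0.06, adjusted p = 0.0013) and PSMD11 (-0.17 ± 0.05, adjusted p = 0.0083).

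The interaction, the OT response of YAP1 KO cells minus that of CTRL cells in the same line, tests whether the genotypes responded differently. In PC9 it was below 0 for 10 genes and above 0 for PSMB10 alone, where 13.8% and 13.2% of all genes were. In HCC4006 it was below 0 for 2 and above 0 for PSMB10 alone, where 8.18% and 10.5% of all genes were. The median was -0.10 in PC9 and 0.02 in HCC4006, with 0.01 and 0.04 for all genes. Other scalings gave -0.13 to -0.06 in PC9 and turned the HCC4006 median to -0.02 to -0.0050. PSMB10 was the single gene of the 44 with a call above 0 in both lines, at 0.68 ± 0.14 in HCC4006 (adjusted p = 0.0066) and 0.35 ± 0.08 in PC9 (adjusted p = 0.0069). In a single fit of all 24 libraries the PC9 value had an adjusted p of 0.055. Between YAP1 KO OT and CTRL OT cells of PC9, PSMB10 did not pass the limma test (log2 change 0.10 ± 0.06, adjusted p = 0.15). Under DMSO it was lower in the YAP1 KO cells of PC9 (-0.25 ± 0.06). The strongest interaction below 0 was that of PSMG1 in PC9 (-0.39 ± 0.05, adjusted p = 0.00022). It was followed by PSMD12 (-0.26 ± 0.07, adjusted p = 0.022), which was not called without YAP1 KO DMSO replicate 3 (adjusted p = 0.054) or YAP1 KO OT replicate 3 (adjusted p = 0.055). PSMD14 came next (-0.23 ± 0.05, adjusted p = 0.0039). The PC9 count was 16 without CTRL OT replicate 1, 6 without YAP1 KO OT replicate 3 and 17 with median-of-ratios scaling, and libraries set to the same sum gave 7 below 0 and 3 above. The 2 HCC4006 genes below 0, PSMD1 and PSME3 (adjusted p = 0.037 and 0.038), were not called in 11 and 10 of the 12 refits that left out 1 dish each. Leaving out HCC4006 CTRL OT replicate 1 gave 5 below and 2 above, leaving out CTRL OT replicate 2 gave none below and 2 above, and leaving out CTRL OT replicate 3 gave 1 below and 2 above. Without YAP1 KO OT replicate 2 there was 1 below, and without any of the other 8 dishes none (3 at an unadjusted limma p under 0.05 in each).

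Levels of the subunits in CTRL DMSO cells spanned a wide range, though the particle holds them in fixed proportion. The 14 core genes ran from 43.3 FPKM for PSMB2 to 582 FPKM for PSMA6 in HCC4006, with a median of 283 FPKM, a 13.4-fold span. In PC9 they ran from 69.3 FPKM for PSMA5 to 487 FPKM for PSMB6, with a median of 276 FPKM, a 7.03-fold span. The 17 cap genes ran from 28.9 FPKM for PSMD11 to 502 FPKM for PSMC1 in HCC4006, with a median of 127 FPKM. In PC9 they ran from 41.5 FPKM for PSMD11 to 267 FPKM for PSMD2, with a median of 91.6 FPKM. FPKM is per length, so these levels can be set side by side. However, 21 of the 44 genes have pseudogenes named for them in RefSeq that could share reads.

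Between the lines, HCC4006 CTRL DMSO cells had 17 genes higher and 19 lower than PC9 CTRL DMSO cells, where 39.2% and 43.4% of all genes were. The median difference was 0.01 for the 44 genes and -0.04 for all genes, and other scalings gave -0.06 to 0.09 for the 44. In all 3 dishes 19 genes lay higher and 19 lower, where 40.1% and 44% of all genes did. The ATPase PSMC1 differed most, with 494, 529.6 and 483 FPKM in HCC4006 and 65.2, 63.99 and 66.3 FPKM in PC9 (log2 change 2.93 ± 0.08, adjusted p = 4.2e-18). The alpha subunit PSMA6 had 582, 606 and 559 FPKM in HCC4006 and 178, 175 and 177 FPKM in PC9 (log2 change 1.71 ± 0.06, adjusted p = 1.2e-16). The ATPase PSMC6 had 214, 204 and 214 FPKM in HCC4006 and 90.01, 85.03 and 90.9 FPKM in PC9 (log2 change 1.24 ± 0.07, adjusted p = 8.7e-13). For all 3 genes the lines were far apart. PSMC1 has 13 pseudogenes named for it and PSMA6 has 4, so their values are uncertain, as are those of PSMC6, which has 3. Chromosome 14 carries PSMC1, PSMA6 and PSMC6 and 4 more of the 44 genes. These 4 did not share the size of the difference, with 0.21 for PSMB5, 0.08 for PSMA3, 0.04 for PSME2 and -0.40 for PSME1.

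In the other direction PSMG4 stood lowest in HCC4006 relative to PC9 (log2 change -1.87 ± 0.09, adjusted p = 3.7e-14), with 13.03, 15.7 and 13.8 FPKM in HCC4006 and 55.8, 54.5 and 52.1 FPKM in PC9. PSMB2 had 42.3, 45.6 and 42.1 FPKM in HCC4006 and 122, 125 and 121 FPKM in PC9 (log2 change -1.48 ± 0.03, adjusted p = 6.3e-19). PSMG2, the partner of PSMG1, had 49.00, 53.5 and 50.3 FPKM in HCC4006 and 91.5, 84.2 and 92.7 FPKM in PC9 (log2 change -0.80 ± 0.06, adjusted p = 4.8e-11). These 3 genes did not overlap between the lines. The catalytic subunits PSMB6 and PSMB7 were also lower in HCC4006 (-0.76 ± 0.06 and -0.65 ± 0.05 on the log2 scale), as was PSMB10 (-0.48 ± 0.09), while PSMF1 was higher (0.82 ± 0.04). All 4 had an adjusted p of 4.2e-05 or less.

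**Figure D5:**
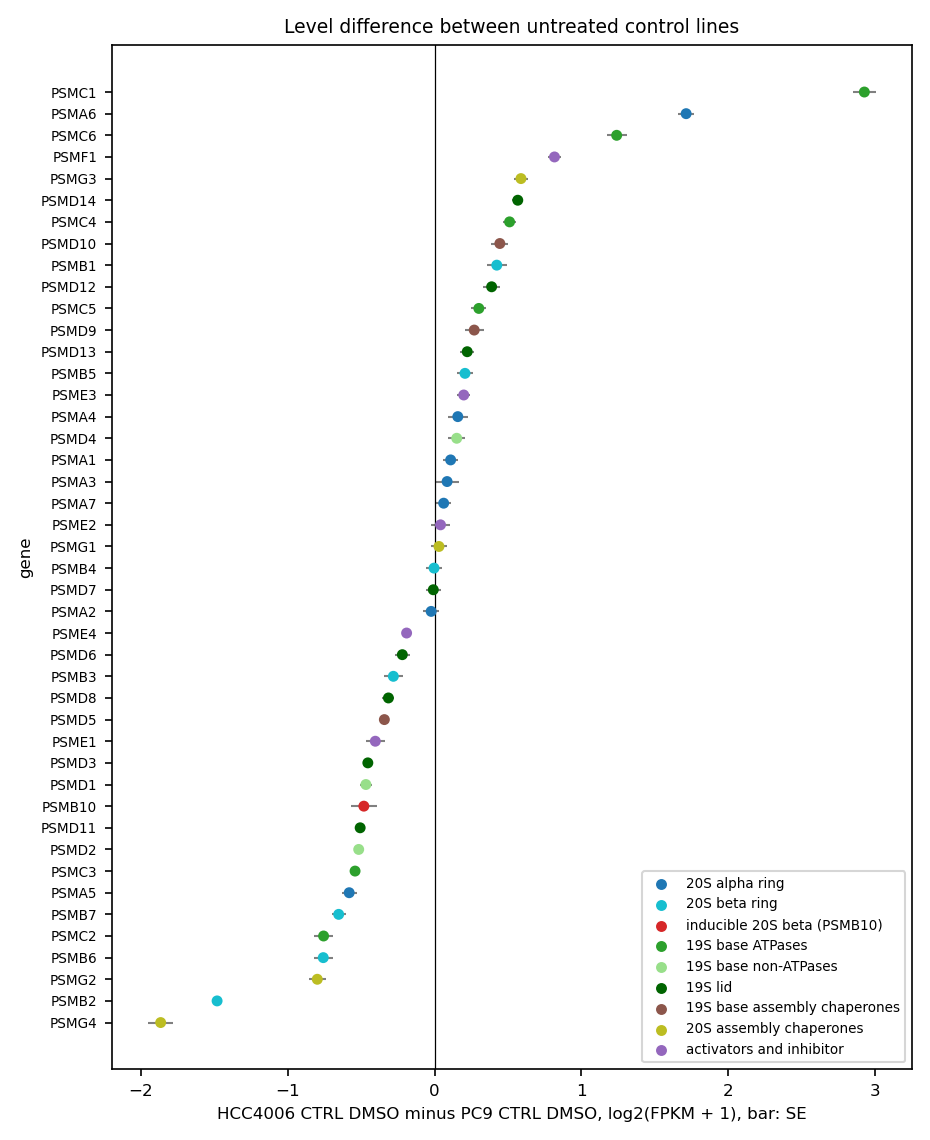
Log2 difference in level between HCC4006 and PC9 CTRL DMSO cells for each of the 44 genes, with 1 point per gene and a bar of 1 standard error from limma. PSMC1 lies furthest to the right at 2.93 and PSMG4 furthest to the left at -1.87.

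Genes that work with the proteasome were read from lists chosen for the pathway. The lists were chosen with earlier results of these data known, so their counts only describe and test nothing. Their counts stand beside the 36.6% of all genes that fell and the 45% that rose with OT in HCC4006 CTRL cells, and the 40.9% and 32% in PC9 CTRL cells. Of 12 further subunits and assembly factors outside the PSM symbols, 10 fell and 2 rose with OT in HCC4006 CTRL cells, and 9 fell and 1 rose in PC9 CTRL cells. UCHL5, the deubiquitinase that docks on the cap, had the largest change of them in both lines (-1.73 ± 0.05 in HCC4006 and -0.86 ± 0.07 in PC9 on the log2 scale). It had 13.3 ± 0.306 FPKM in HCC4006 CTRL OT and 46.3 ± 2.86 FPKM in CTRL DMSO cells, and 13.96 ± 0.794 FPKM in PC9 CTRL OT and 26.1 ± 1.39 FPKM in CTRL DMSO cells (SD, n = 3 each). In YAP1 KO cells under DMSO, PAAF1, a chaperone of the base, was the changed member of this list with the largest difference in PC9, with 9.56 ± 0.788 FPKM in YAP1 KO DMSO and 16.9 ± 0.649 FPKM in CTRL DMSO cells (log2 change -0.76 ± 0.06, adjusted p = 1.7e-06).

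The next list held 12 genes for NFE2L1, its relatives and the enzymes that process it. In HCC4006 CTRL cells 7 rose and 2 fell with OT (45% and 36.6% of all genes). In PC9 CTRL cells 6 rose and 3 fell (32% and 40.9% of all genes). NFE2L3, a relative of NFE2L1, had the largest change in HCC4006 (log2 change 0.87 ± 0.05, adjusted p = 1.2e-08), and MAFF, a small partner protein of these factors, had it in PC9 (log2 change -1.59 ± 0.05, adjusted p = 6.2e-11). NFE2L3 went the other way in PC9 (log2 change -1.56 ± 0.04, adjusted p = 5.1e-12). Among 10 target genes of NFE2L2, the relative that answers oxidative stress, 6 rose and 3 fell in HCC4006 CTRL cells and 6 rose and 4 fell in PC9 CTRL cells, led by HMOX1, the heme-degrading enzyme (2.17 ± 0.07 and 0.72 ± 0.06 on the log2 scale). All 10 were lower in HCC4006 CTRL DMSO than in PC9 CTRL DMSO cells, with a median difference of -2.18, where 43.4% of all genes were lower. Of 14 genes that supply ubiquitin or carry substrates, 11 fell and 3 rose in HCC4006 CTRL cells, and 7 fell and 3 rose in PC9 CTRL cells.

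A further list held known interferon regulators of PSMB10, PSME1 and PSME2, and most of them rose with OT. Whether they acted on these genes here was not tested. PSMB10 and PSME1 rose with OT in CTRL cells of both lines. With all libraries as deposited, PSME2 was called in neither (log2 change 0.02 in HCC4006 and -0.05 in PC9). Of the 9 genes of this list, 7 were higher and 1 lower in HCC4006 CTRL cells, and 6 of 8 tested were higher and 1 lower in PC9 CTRL cells, where 45% and 32% of all genes were higher in these lines. STAT2, a signalling factor of type I interferon, changed most in HCC4006, with 12.5 ± 1.20 FPKM in CTRL OT and 2.84 ± 0.224 FPKM in CTRL DMSO cells (SD, n = 3 each; log2 change 1.81 ± 0.07, adjusted p = 2.6e-10). IRF1, a transcription factor known to bind such promoters, changed most in PC9, with 13.4 ± 0.343 FPKM in CTRL OT and 4.90 ± 0.315 FPKM in CTRL DMSO cells (log2 change 1.29 ± 0.05, adjusted p = 3.8e-10). The interaction was above 0 for 6 of the 9 genes in HCC4006 and for 4 of 8 in PC9, and for 10.5% and 13.2% of all genes. NLRC5, which drives antigen presentation genes, was the member with the largest difference between YAP1 KO OT and CTRL OT cells. It had 10.3 ± 0.0181 FPKM in YAP1 KO OT and 5.73 ± 1.18 FPKM in CTRL OT cells of HCC4006 (log2 change 0.76 ± 0.10, adjusted p = 0.00011), and 3.30 ± 0.0892 FPKM in YAP1 KO OT and 1.66 ± 0.154 FPKM in CTRL OT cells of PC9 (log2 change 0.69 ± 0.08, adjusted p = 1.3e-05).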

How the data were processed

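The authors deposited 1 table of FPKM with 1 column per library, and each column was matched to a labelled sample by line, genotype, treatment and replicate number, with the columns headed NOTX taken as the DMSO samples. RNA came from TRIzol lysates and the library kit keeps strand, per the labels' protocols. For the processing, the submitters' processing notes list DESeq2 1.10.1, Cufflinks 2.2.1 and STAR 2.5.1b without roles, and hg19 (GRCh37) as the build. The annotation and whether strand was used in counting are not given in the sources used here. FPKM are not counts and read depth is unknown, so no count model or counting interval was used.

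Tests were run in R 4.3.3 with limma 3.58.1, on log2(FPKM + 1), which understates changes of low genes, with group means as the only terms and empirical Bayes moderation with an intensity trend. Each line was fitted alone (12 libraries), and differences between lines in 1 fit of 24. Genes needed an FPKM of 1 in 3 libraries, which left 12685 in PC9 and 13113 in HCC4006, with all 44 proteasome genes in both. Calls were made at a Benjamini-Hochberg adjusted p under 0.05 over all genes, and ± beside a log2 change is its standard error. Genes named were the catalytic subunits, activators and inhibitor, the 3 highest and 3 lowest called per comparison and the largest called change of each role or list. A gene so named is also given elsewhere. Promoters came from a RefSeq table (GRCh38.p14) and motifs were searched on both strands. The median residual SD of the 44 genes was 0.0838 in HCC4006 and 0.0398 in PC9. Replicate numbers did not pair the dishes (correlations of deviations from -0.264 to 0.236). Alternatives were 2 pseudocounts, 2 filters, 3 scalings, no trend, a replicate block, a single fit and leaving out each dish. The tests were tried on simulated data. The genes and lists were chosen with earlier results of these data known.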

Additional observations from a re-analysis of the deposited data

Results flagged for a closer look

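Several proteasome genes responded differently in groups that went through the same contrast, each by a limma test of the difference itself. Between the lines, the OT response in CTRL cells (HCC4006 minus PC9, log2) was -0.86 for PSMC3, -0.80 for PSMG3 and -0.77 for PSMB5, and 0.54 for PSME4, 0.64 for PSME1 and 1.31 for PSMB10, the 3 lowest and 3 highest of the genes called. The difference between YAP1 KO OT and CTRL OT cells (HCC4006 minus PC9) was -0.48 for PSMF1, -0.27 for PSME3 and -0.17 for PSMD11, and 0.44 for PSMA7, 0.74 for PSMG1 and 0.77 for PSMG4.

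Between the genotypes of PC9, the OT response of YAP1 KO minus that of CTRL cells was -0.39 for PSMG1, -0.26 for PSMD12, -0.23 for PSMD14, -0.21 for PSMA7, -0.19 for PSMC2 and for PSMC3, -0.17 for PSMB2 and -0.14 for PSMA1, PSMD1 and PSMD8. It was 0.35 for PSMB10. In HCC4006 it was -0.23 for PSMD1, -0.21 for PSME3 and 0.68 for PSMB10.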

How the results depend on the processing

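The fall with OT held under every alternative run, with 38 to 40 of 44 genes lower in HCC4006 CTRL cells, 36 to 40 in HCC4006 YAP1 KO cells, 30 to 41 in PC9 CTRL cells and 34 to 40 in PC9 YAP1 KO cells. Scaling shifts the median of all genes in HCC4006 CTRL OT against DMSO, which was 0.09 as deposited, -0.02 by median of ratios, 0.16 at the same upper quartile and 0.27 at the same sum, beside -0.68, -0.80, -0.60 and -0.47 for the 44 genes. In PC9 CTRL cells the changes of PSMB6 and PSMB7 turned at the same upper quartile (0.0052 and 0.026). The YAP1 KO and interaction counts moved more, and the cause was not tested. With median-of-ratios scaling, PC9 YAP1 KO DMSO against CTRL DMSO had 2 higher and PC9 YAP1 KO OT against CTRL OT 0 higher (0 at an unadjusted limma p under 0.05), the PC9 interaction had 17 lower, and in HCC4006 there was 1 higher under DMSO and 12 lower under OT. At the same sum, PC9 had 3 higher under DMSO and 3 higher in the interaction, HCC4006 had 6 higher under DMSO, 12 higher under OT and 2 higher in the interaction, and the YAP1 KO difference between lines had 5 lower. At the same upper quartile, HCC4006 had 4 higher and 7 lower under DMSO and 15 lower under OT, and the difference between lines 9 higher and 8 lower. A single fit of 24 libraries gave PC9 2 higher and 7 lower under DMSO, 1 higher under OT, and 0 higher (1 unadjusted) and 6 lower in the interaction, and gave HCC4006 5 higher and 7 lower under DMSO, 8 higher under OT and 2 higher in the interaction. No filter left 1 higher in HCC4006 under DMSO. Without a trend PC9 had 2 higher under DMSO and the HCC4006 interaction 0 lower (3 unadjusted). The replicate block, on numbers that did not pair the dishes, gave 4 higher in HCC4006 under DMSO and 1 lower in its interaction. Leaving out 1 dish at a time, HCC4006 had 1 to 6 higher and 1 to 8 lower under DMSO, 3 to 9 higher and 5 to 14 lower under OT, and 1 to 2 higher and 0 to 5 lower in the interaction. PC9 had 2 to 6 higher under DMSO, 0 to 3 higher under OT and 6 to 16 lower in the interaction, and the difference between lines was 11 to 20 higher and 3 to 5 lower. Among the genes named, 163 of the recomputed tests lost a call, 70 gained one and 4737 kept their side of the threshold. In 2 more the sign turned, with a call in at least 1 of the fits. Depth is unknown, so the smallest detectable change is known only from the spread between dishes.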
